A study of Homo sapiens with 6 samples.

Results

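The genes described here are gelsolin and 9 other actins and actin-binding proteins, measured in a human breast cancer line exposed to a histone deacetylase inhibitor. They were listed by symbol, as GSN, CAPG, FLNA, CORO1A, LCP1, ACTB, ACTG1, TAGLN, CFL1 and PFN1. All 10 symbols matched 1 row each of the 30051 genes in the count table. All 10 passed the filter on low counts, which kept 13341 genes and left 16710 untested. The cells were MDA-MB-231, a line derived from a triple-negative breast carcinoma with mesenchymal features. The treated group received 50 nM panobinostat for 24 h, an inhibitor of most histone deacetylases, and the control group received the solvent DMSO for 24 h. Both groups were the same line in the same serum-containing DMEM/F-12 medium, and carried no engineered allele that the labels name. Each group had 3 libraries, panobinostat replicates 1, 2 and 4 and DMSO replicates 1, 2 and 3, which the design text describes as independent repeats of 1 line. The comparison asks how transcripts of actin and of the proteins that bind it differed in cells given the inhibitor.

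Actin cycles between monomers and filaments. Profilin charges monomers with ATP and hands them to growing ends, cofilin severs and depolymerises old filaments, and gelsolin and its relatives cut filaments or cap their fast-growing ends. Filamins, plastins, coronins and transgelins join, bundle or decorate the filaments that result, which set the shape, stiffness and migration of carcinoma cells. GSN is a gene long used as an example of induction by histone deacetylase inhibitors in cultured cells.

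Library totals were 15106148, 5389638 and 6622406 counts in panobinostat replicates 1, 2 and 4, against 11996519, 7113569 and 6514568 counts in DMSO replicates 1, 2 and 3. Panobinostat replicate 4 stood apart from the other 2 panobinostat libraries. The biological coefficient of variation over all tested genes was 0.112 with it and 0.0283 without it. Calls of named genes, and counts led with, that changed without it are given both ways below. Levels of 1 gene across libraries are in CPM, counts scaled to a common TMM-adjusted library total. Fold changes are log2 of panobinostat over DMSO, as estimate ± SE from the quasi-likelihood test of edgeR. A gene was called where the p adjusted over all 13341 genes by the Benjamini-Hochberg method was under 0.05. Means are given ± SD with n = 3 libraries in each group. Because RNA was taken from whole cultures, fewer cells of a type and less RNA per cell cannot be told apart.

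Promoters of 5 of the genes are shown: GSN, CORO1A and ACTG1 for the size of their rise, FLNA for a motif it had in common with ACTG1, and PFN1 as one that fell. RefSeq on GRCh38.p14 gave a promoter entry for 8 of the 10 genes, with 16 starts, 6 of them for GSN and 4 for CAPG. ACTB and TAGLN were not matched. Each stretch is the 250 bases before a transcript start, written 5′ to 3′ on the gene's strand. The ACTG1 stretch lies at chr17:81512800-81513049 on the minus strand and the FLNA stretch at chrX:154374635-154374884 on the minus strand. The CORO1A stretch lies at chr16:30183352-30183601 on the plus strand and the PFN1 stretch at chr17:4948531-4948780 on the minus strand. For GSN the start with the most GC boxes is shown, at chr9:121267912-121268161 on the plus strand, and the counts do not tell which of its starts was used. Capitals mark motif matches on either strand, where matches may touch or overlap: the GC box GGGCGG, the CCAAT box, the TATA box TATAAA and the CArG box, which is the site known to bind serum response factor.
ACTG1 promoter: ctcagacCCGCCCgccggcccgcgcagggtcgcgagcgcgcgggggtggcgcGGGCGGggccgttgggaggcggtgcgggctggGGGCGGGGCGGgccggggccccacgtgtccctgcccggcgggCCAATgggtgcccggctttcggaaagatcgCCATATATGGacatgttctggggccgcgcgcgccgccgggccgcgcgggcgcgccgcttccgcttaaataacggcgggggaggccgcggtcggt
FLNA promoter: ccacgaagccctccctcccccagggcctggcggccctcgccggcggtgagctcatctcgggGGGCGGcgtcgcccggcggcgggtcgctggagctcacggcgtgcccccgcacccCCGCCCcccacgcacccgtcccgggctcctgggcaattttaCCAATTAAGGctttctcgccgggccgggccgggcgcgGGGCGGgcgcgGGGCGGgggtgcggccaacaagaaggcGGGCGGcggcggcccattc
CORO1A promoter: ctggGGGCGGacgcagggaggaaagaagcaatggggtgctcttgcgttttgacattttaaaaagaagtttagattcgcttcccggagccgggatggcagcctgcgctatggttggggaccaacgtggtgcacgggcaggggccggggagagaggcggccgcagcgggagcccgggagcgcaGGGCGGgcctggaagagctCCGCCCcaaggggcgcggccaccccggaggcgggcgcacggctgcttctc
PFN1 promoter: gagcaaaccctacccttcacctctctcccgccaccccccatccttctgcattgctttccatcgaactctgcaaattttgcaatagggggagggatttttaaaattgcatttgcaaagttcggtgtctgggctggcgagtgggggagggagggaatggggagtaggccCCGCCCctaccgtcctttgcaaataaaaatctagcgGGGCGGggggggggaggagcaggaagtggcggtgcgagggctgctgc
GSN promoter 2: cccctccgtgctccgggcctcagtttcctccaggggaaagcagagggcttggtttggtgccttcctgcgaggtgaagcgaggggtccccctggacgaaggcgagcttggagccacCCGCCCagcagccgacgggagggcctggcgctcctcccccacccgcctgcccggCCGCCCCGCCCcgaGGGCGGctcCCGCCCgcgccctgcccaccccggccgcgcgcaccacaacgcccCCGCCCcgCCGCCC

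ACTG1 and FLNA each held 1 CArG box, both beginning at position −94 from the start, and no other start of the 8 genes held one. The FLNA box overlapped a CCAAT box. Of 35116 promoters in the table, 1.16% held a CArG box in a stretch of this length. GC boxes were found in 42.6% of all promoters, CCAAT boxes in 32.0% and TATA boxes in 10.7%. ACTG1 had 4 GC boxes, FLNA 5, CORO1A 3 and PFN1 2, and the GSN start shown had 7. GSN also had 2 starts with no GC box. LCP1, whose promoter is not shown, had 1 GC box and 2 TATA boxes in a stretch with a GC content of 41.2%, against a median of 58.0% over all promoters. These matches describe the letters and were not tested as binding sites.

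Panobinostat changed 8 of the 10 genes, with 6 higher and 2 lower. GSN, CORO1A, LCP1, ACTB, ACTG1 and FLNA rose, PFN1 and CAPG fell, and TAGLN and CFL1 were not called. Among all 13341 tested genes 58.9% were called, 30.2% higher and 28.6% lower, so a call was common in this comparison. The 3 genes GSN, CORO1A and LCP1 rose by at least 2-fold, against 10.9% of all tested genes. The groups did not overlap for 9 of the 10 genes, against 69% of all tested genes. The median log2 fold change of the 10 genes was 0.33, beside 0.00 over all tested genes. Summed over the 10 genes, the level was 16590, 16500 and 13880 CPM in panobinostat replicates 1, 2 and 4, against 11590, 11840 and 11820 CPM in DMSO replicates 1, 2 and 3. All 3 panobinostat sums lay above all 3 DMSO sums. Most of each sum was ACTG1, ACTB and FLNA, so it mainly follows those 3 genes.

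**Figure D1:**
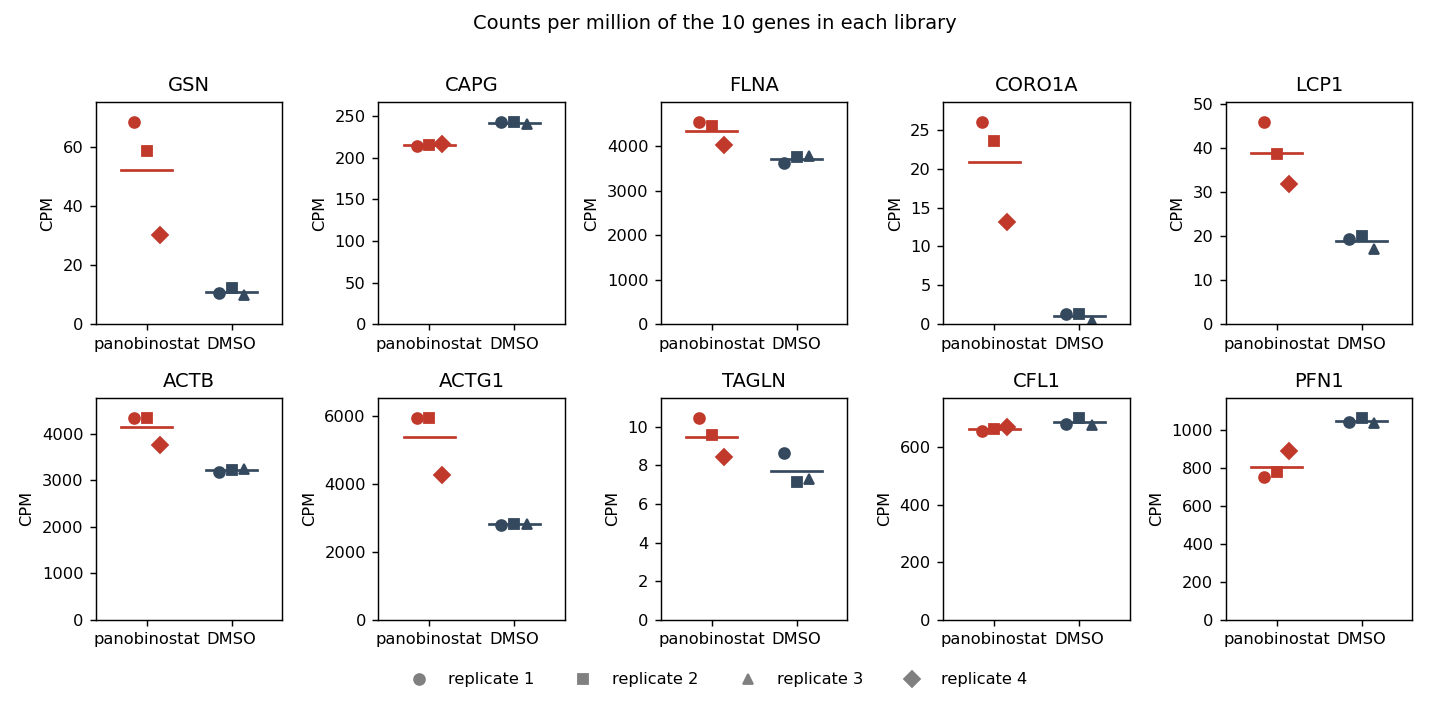
Level of each of the 10 genes in each library, in CPM on a linear axis from 0, with panobinostat on the left and DMSO on the right. Points are libraries, marked by replicate number, and the line is the mean of 3. For GSN, CORO1A and ACTG1 the lowest panobinostat library stands clear of all DMSO libraries, and TAGLN is the 1 gene whose groups overlap.

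**Figure D2:**
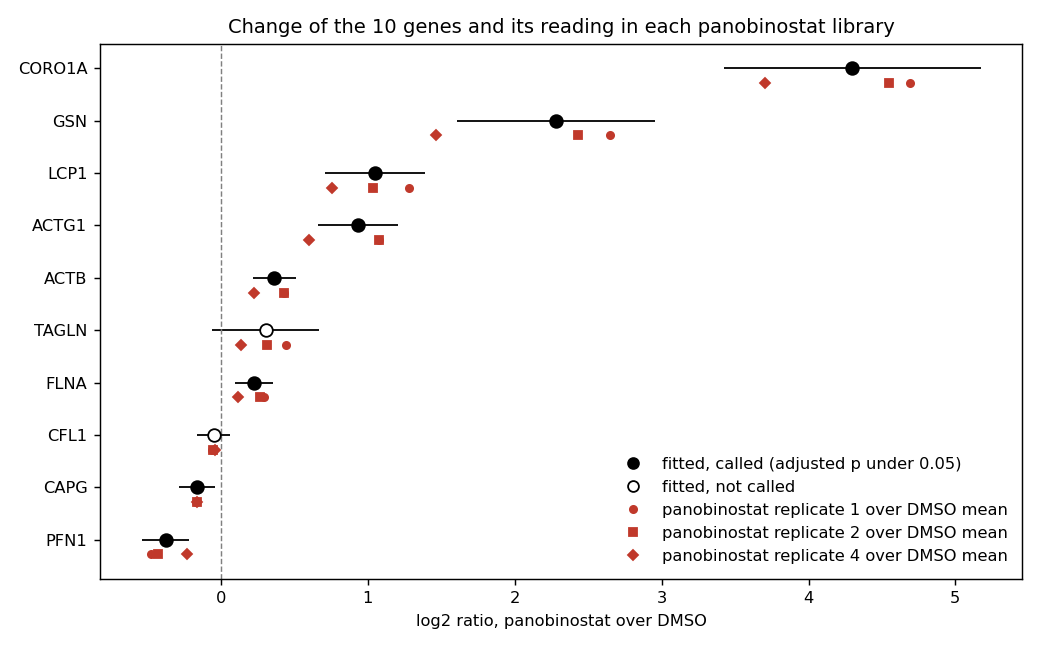
Log2 of each panobinostat library over the DMSO mean for the 10 genes, with the edgeR estimate and its 95% confidence interval. CORO1A lies at 4.30 and GSN at 2.28, and panobinostat replicate 4 lies nearer to 0 than replicates 1 and 2 for every gene.

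The cytoplasmic actins were both higher under panobinostat, ACTG1 more than ACTB. ACTG1 encodes gamma-actin and lies at chr17:81509971-81512799 on the minus strand of GRCh38.p14. It had 5935, 5924 and 4254 CPM in panobinostat replicates 1, 2 and 4, against 2793, 2824 and 2823 CPM in DMSO replicates 1, 2 and 3. The 3 DMSO libraries lay close together, and even the lowest panobinostat library was well above them. ACTG1 averaged 5371 ± 967 CPM in panobinostat and 2813 ± 17.9 CPM in DMSO, a ratio of 1.91 (log2 fold change 0.93 ± 0.12, edgeR adjusted p = 0.00104). ACTB encodes beta-actin, often used as a reference gene, and lies at chr7:5527148-5530601 on the minus strand. It had 4335, 4323 and 3746 CPM in panobinostat replicates 1, 2 and 4, against 3183, 3221 and 3233 CPM in DMSO replicates 1, 2 and 3. Again every panobinostat library was above every DMSO library. ACTB averaged 4135 ± 337 CPM in panobinostat and 3212 ± 25.6 CPM in DMSO (log2 fold change 0.36 ± 0.06, edgeR adjusted p = 0.00293). Of the muscle actins, ACTA2 averaged 1.32 CPM in panobinostat and 0.901 CPM in DMSO and was not tested, and ACTG2 had 3 counts in panobinostat and 0 in DMSO.

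The coding sequences of the cytoplasmic actins are close enough that short reads from their identical runs can fit both. Their 1128 coding bases aligned without a gap, 1029 were identical and 99 differed, an identity of 91.22%. The longest identical run was 59 bases, while the 3′ untranslated regions shared 42.86% of their aligned columns. The first 90 coding bases of transcripts ACTG1-210 and ACTB-201 (GENCODE 29) are shown because 17 of the differences fall there, in capitals.
ACTG1 coding start: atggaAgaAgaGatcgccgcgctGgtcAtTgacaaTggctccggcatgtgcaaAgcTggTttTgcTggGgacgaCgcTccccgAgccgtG
ACTB coding start: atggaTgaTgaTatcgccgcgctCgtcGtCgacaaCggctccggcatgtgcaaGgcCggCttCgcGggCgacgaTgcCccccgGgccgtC

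In ACTB, 10.26% of the 50-base windows of the transcript occurred in another gene, and in ACTG1 3.58% did. Rows of actin pseudogenes held counts equal to 0.118% of those of ACTB and 0.028% of those of ACTG1. The gene sharing the most windows was ACTBP2 for ACTB (5.07%) and ACTG1P20 for ACTG1 (1.22%). Counts in windows shared with any other gene are therefore uncertain, but most of each transcript was its own. The ratio of ACTG1 to ACTB counts was 1.37, 1.37 and 1.14 in panobinostat replicates 1, 2 and 4, against 0.877, 0.877 and 0.873 in DMSO replicates 1, 2 and 3. ACTG1 thus had more counts than ACTB in every panobinostat library and fewer in every DMSO library. The mean ratio was 1.29 ± 0.135 in panobinostat and 0.876 ± 0.0021 in DMSO (two-sided exact permutation test, p = 0.1, the smallest that 3 against 3 libraries allow).

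Gelsolin rose under panobinostat while its relative CAPG fell slightly. GSN encodes the calcium-regulated severing and capping protein and lies at chr9:121201483-121332842 on the plus strand. It had 68.4, 58.6 and 30.1 CPM in panobinostat replicates 1, 2 and 4, against 10.5, 12.2 and 9.93 CPM in DMSO replicates 1, 2 and 3. The panobinostat libraries spread widely, and the lowest of them was still well above the highest DMSO library. GSN averaged 52.4 ± 19.9 CPM in panobinostat and 10.9 ± 1.20 CPM in DMSO, a ratio of 4.81 (log2 fold change 2.28 ± 0.29, 95% confidence interval 1.61 to 2.95, edgeR adjusted p = 0.00108). These levels rested on 1041, 319 and 200 counts in panobinostat and on 124, 86 and 64 counts in DMSO. No 50-base window of the GSN transcript occurred in another gene. With panobinostat replicate 4 left out, the log2 fold change was 2.58.

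CAPG, at chr2:85391602-85419540 on the minus strand, caps filament ends without cutting them. It had 214.5, 215.6 and 216.1 CPM in panobinostat replicates 1, 2 and 4, against 242.3, 242.4 and 240.2 CPM in DMSO replicates 1, 2 and 3. The libraries of each group were nearly level and the groups did not overlap. CAPG averaged 215 ± 0.83 CPM in panobinostat and 242 ± 1.24 CPM in DMSO (log2 fold change −0.17 ± 0.05, edgeR adjusted p = 0.0271). This call was the least stable of the 8. It was lost with library totals in place of TMM, with no filter, and without panobinostat replicate 1 or 2 or any 1 of the DMSO libraries, with an edgeR adjusted p of up to 0.0934. The log2 fold change stayed between −0.22 and −0.14. Among the other tested relatives, SCIN, the adseverin that also cuts filaments, rose with a log2 fold change of 1.72 ± 0.28, at 6.72 CPM in panobinostat and 2.11 CPM in DMSO. FLII fell (−0.36 ± 0.08), as did SVIL, a membrane-linked relative (−0.24 ± 0.07). The SVIL call was lost without panobinostat replicate 1 or 2 or DMSO replicate 2 or 3 (edgeR adjusted p of up to 0.0873). AVIL was not called (0.72 ± 0.35) and was called higher without panobinostat replicate 4 (0.88, edgeR adjusted p = 0.00925). VIL1, the villin of intestinal brush borders, had 1 count in panobinostat and 0 in DMSO.

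The 2 genes best known from blood cells, CORO1A and LCP1, were both low in DMSO and higher under panobinostat. CORO1A encodes coronin-1A, an actin-binding protein abundant in leukocytes, and lies at chr16:30183602-30189076 on the plus strand. It had 26.0, 23.5 and 13.1 CPM in panobinostat replicates 1, 2 and 4, against 1.27, 1.28 and 0.466 CPM in DMSO replicates 1, 2 and 3. The lowest panobinostat library stood far above the highest DMSO library. CORO1A averaged 20.9 ± 6.84 CPM in panobinostat and 1.01 ± 0.468 CPM in DMSO, a ratio of 20.7 (log2 fold change 4.30 ± 0.38, 95% confidence interval 3.43 to 5.17, edgeR adjusted p = 0.000573). The DMSO level rested on 15, 9 and 3 counts, and the panobinostat level on 395, 128 and 87. Over summed counts the ratio was 20.9, with an exact 95% interval of 14.2 to 32.0 that covers counting error only. A pseudogene, AC133555.4, shared 5.7% of the 50-base windows of CORO1A, and the antisense gene AC012645.3 overlaps 11.11% of its exons.

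LCP1 encodes L-plastin, a filament bundler of blood cells that many carcinoma lines also make, and lies at chr13:46125923-46182177 on the minus strand. It had 46.0, 38.8 and 31.9 CPM in panobinostat replicates 1, 2 and 4, against 19.4, 20.1 and 17.2 CPM in DMSO replicates 1, 2 and 3. Every panobinostat library was above every DMSO library. LCP1 averaged 38.9 ± 7.02 CPM in panobinostat and 18.9 ± 1.49 CPM in DMSO (log2 fold change 1.05 ± 0.15, edgeR adjusted p = 0.00147). Leukocyte markers were low in both groups: 12 of 14 listed markers had a row, 2 were tested, and CD14 was the 1 called higher (2.21 ± 0.36). Their summed level ranged from 5.51 to 6.77 CPM in panobinostat and from 3.41 to 5.41 CPM in DMSO. These sums may miss reads of CD68, which shares 81.73% of its exons with another gene on the same strand. The pan-leukocyte marker PTPRC averaged 0.123 CPM in panobinostat and had 0 counts in DMSO, and SPI1 had 0 counts in all 6 libraries.

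Other coronins and bundlers moved in both directions. CORO2A rose (2.32 ± 0.25, 57.9 CPM in panobinostat and 11.8 CPM in DMSO), CORO1C, the widely expressed coronin, rose (0.42 ± 0.07), CORO2B fell (−0.79 ± 0.15) and CORO1B was not called (0.10 ± 0.07). CORO7 was not tested, with 0 counts in panobinostat and 1 count in each DMSO library. It shares 37.45% of its exons with CORO7-PAM16 on the same strand, so these counts cannot be read as absence. Of the bundlers, FSCN1, the fascin of filopodia, rose (1.19 ± 0.14) and PLS1, the plastin of intestinal microvilli, rose (0.93 ± 0.12). PLS3, the plastin of solid tissues, was not called (−0.14 ± 0.06), and was called lower without panobinostat replicate 4 (−0.16, edgeR adjusted p = 0.000338). ACTN1, a crosslinking alpha-actinin, fell (−0.27 ± 0.06) and ACTN4 was not called (0.05 ± 0.05).

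FLNA encodes filamin A, which joins filaments into networks and anchors them to membrane proteins, and lies at chrX:154348531-154374634 on the minus strand. It had 4542, 4465 and 4022 CPM in panobinostat replicates 1, 2 and 4, against 3615, 3750 and 3779 CPM in DMSO replicates 1, 2 and 3. The groups did not overlap, with panobinostat replicate 4 nearest to DMSO. FLNA averaged 4343 ± 281 CPM in panobinostat and 3714 ± 87.4 CPM in DMSO (log2 fold change 0.23 ± 0.06, edgeR adjusted p = 0.0107). Without DMSO replicate 1 the call was lost (log2 fold change 0.21, edgeR adjusted p = 0.0507). FLNC, the muscle filamin, rose more (1.61 ± 0.16).

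TAGLN encodes transgelin, a filament-binding protein used as a smooth muscle marker, and lies at chr11:117199294-117207465 on the plus strand. It had 10.5, 9.56 and 8.43 CPM in panobinostat replicates 1, 2 and 4, against 8.64, 7.12 and 7.29 CPM in DMSO replicates 1, 2 and 3. The groups overlapped, since DMSO replicate 1 lay above panobinostat replicate 4. TAGLN averaged 9.48 ± 1.01 CPM in panobinostat and 7.68 ± 0.836 CPM in DMSO and was not called (log2 fold change 0.30 ± 0.16, 95% confidence interval −0.06 to 0.67, edgeR adjusted p = 0.131). It was called higher without panobinostat replicate 4 (log2 fold change 0.37, edgeR adjusted p = 0.0269) and with the quality weights of limma-voom (0.38, adjusted p = 0.0207). Its exons share 446 bases, or 11.39%, with PCSK7 on the opposite strand, and the table was counted with a strand setting not given in the sources used here. TAGLN2, the widely expressed transgelin, was not called (−0.09 ± 0.07).

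The calponins, relatives of transgelin that also bind filaments, all rose. CNN2 rose by 0.54 ± 0.11 and CNN3 by 0.39 ± 0.07. CNN1, the smooth muscle calponin, had 129, 38 and 32 counts in panobinostat replicates 1, 2 and 4, against 1, 0 and 2 counts in DMSO replicates 1, 2 and 3. Over summed counts its ratio was 61.4, with an exact 95% counting interval of 20.7 to 300.0 (edgeR adjusted p = 0.000592). Of the smooth muscle markers 7 of 8 had a row and 3 were tested, with CNN1 and LMOD1 higher and SMTN lower. Their summed level ranged from 74.8 to 101.0 CPM in panobinostat and from 110.8 to 120.8 CPM in DMSO. Most of these sums was SMTN, which averaged 70.8 CPM in panobinostat and 114.9 CPM in DMSO, so they mainly follow that gene. DES averaged 0.394 CPM in panobinostat and 0.028 CPM in DMSO and was not tested. MYH11, the smooth muscle myosin, averaged 0 CPM in panobinostat and 0.052 CPM in DMSO.

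Of the proteins that turn filaments over, PFN1 was lower under panobinostat and CFL1 was not called. PFN1 encodes profilin-1, the main supplier of monomers, and lies at chr17:4945652-4948530 on the minus strand. It had 751.1, 775.5 and 888.5 CPM in panobinostat replicates 1, 2 and 4, against 1039, 1062 and 1035 CPM in DMSO replicates 1, 2 and 3. Every panobinostat library was below every DMSO library. PFN1 averaged 805 ± 73.3 CPM in panobinostat and 1045 ± 14.9 CPM in DMSO (log2 fold change −0.38 ± 0.07, edgeR adjusted p = 0.00358). Profilin pseudogenes held counts equal to 1.462% of those of PFN1, and 8.86% of its 50-base windows occurred in PFN1P1, and ENO3 on the opposite strand overlaps 5.59% of its exons. PFN2, the second profilin, fell by a like size (−0.38 ± 0.06). TMSB4X, which holds monomers in reserve, rose (0.15 ± 0.05). That call was lost without any 1 library other than panobinostat replicate 4 (edgeR adjusted p of up to 0.131). It was also lost with no filter (edgeR adjusted p = 0.438) and with the DESeq2 test (adjusted p = 0.0824). The TMSB4X relatives TMSB10 (0.03 ± 0.05) and TMSB15B (−0.20 ± 0.32) were not called.

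CFL1 encodes cofilin-1, the main non-muscle severing protein of the cofilin family, and lies at chr11:65854673-65858180 on the minus strand. It had 656.9, 661.7 and 668.8 CPM in panobinostat replicates 1, 2 and 4, against 680.0, 701.5 and 678.0 CPM in DMSO replicates 1, 2 and 3. The groups did not overlap but lay close together. CFL1 averaged 662.5 ± 6.0 CPM in panobinostat and 686.5 ± 13.0 CPM in DMSO (log2 fold change −0.05 ± 0.05, 95% confidence interval −0.16 to 0.06, edgeR adjusted p = 0.383). Its exons share 759 bases, or 12.95%, with MUS81 on the opposite strand. Its relatives differed: CFL2, the muscle cofilin, fell (−0.44 ± 0.08) and DSTN, destrin, rose (0.23 ± 0.06). The DSTN call was lost without panobinostat replicate 1 or 2 or DMSO replicate 1 or 2 (edgeR adjusted p of up to 0.0591), and with no filter.

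Panobinostat replicate 4 lay between the other panobinostat libraries and DMSO for all 10 genes. For GSN the log2 difference from the DMSO mean averaged 2.54 in panobinostat replicates 1 and 2, against 1.47 in replicate 4. For CORO1A the same differences were 4.62 and 3.70, and for LCP1 1.16 and 0.76. For ACTG1 they were 1.08 and 0.60, for ACTB 0.43 and 0.22, and for PFN1 −0.45 and −0.23. CAPG was the most even, at −0.17 and −0.16. The direction in replicate 4 was that of replicates 1 and 2 for each of the 10 genes.

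Per length, actin transcripts were among the highest in these cells. Levels between genes were set as counts per base of the principal transcript, scaled to the same total in every library. ACTG1 stood at 6295 ± 1155 in panobinostat and 3216 ± 33.9 in DMSO, the rank among all genes being 2 in panobinostat and 14 in DMSO. ACTB stood at 5690 ± 484 in panobinostat and 4312 ± 54.5 in DMSO. ACTG1 and ACTB overlapped in panobinostat, and in DMSO every library had more ACTB than ACTG1. That DMSO order depends on the length used, since with all annotated exons as length ACTG1 made up 50.7% of actin transcripts in DMSO. PFN1 followed at 1648 ± 143 in panobinostat and 2088 ± 27.5 in DMSO, and FLNA at 1348 ± 92.4 in panobinostat and 1125 ± 31.3 in DMSO. CFL1 stood at 932.3 ± 4.98 in panobinostat and 942.6 ± 17.0 in DMSO, and CAPG at 394.8 ± 0.90 in panobinostat and 432.0 ± 0.69 in DMSO. The other 4 genes were far lower. GSN had 52.2 ± 20.0 in panobinostat and 10.6 ± 1.14 in DMSO, and CORO1A had 30.6 ± 10.1 in panobinostat and 1.44 ± 0.664 in DMSO. LCP1 had 26.1 ± 4.80 in panobinostat and 12.4 ± 0.921 in DMSO, and TAGLN had 11.6 ± 1.28 in panobinostat and 9.15 ± 0.963 in DMSO. The ranges of GSN, CORO1A and LCP1 overlapped in panobinostat, though GSN was above CORO1A and LCP1 within each panobinostat library. That place of GSN rests on the length used, 2657 bases here and 11018 with all annotated exons. In DMSO CORO1A was the lowest of the 10 in every library.

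The make-up of each family shifted in different ways on this per-length scale. With 3 against 3 libraries the exact permutation test cannot go below 0.1, and that value was reached by each share and sum that follows unless another is given. ACTG1 made up 52.3 ± 2.70% of actin transcripts in panobinostat and 42.7 ± 0.056% in DMSO. GSN made up 7.56 ± 2.91% of the gelsolin family in panobinostat and 1.43 ± 0.148% in DMSO, while CAPG remained its largest member, at 57.1 ± 0.29% in panobinostat and 58.3 ± 0.30% in DMSO. The order of the CAPG shares turned with all annotated exons as length, at 54.8% in panobinostat and 53.6% in DMSO, where the groups overlapped (exact permutation p = 0.4). So GSN gained share in every panobinostat library and stayed a minor part of its family, at 3.18% in panobinostat and 0.571% in DMSO with that length. CORO1A made up 3.79 ± 0.982% of the coronins in panobinostat and 0.247 ± 0.116% in DMSO, far behind CORO1C, at 71.8% in panobinostat and 71.7% in DMSO (exact permutation p = 0.8). LCP1 made up 5.12 ± 0.847% of the plastins in panobinostat and 2.56 ± 0.199% in DMSO, and PLS3 78.7 ± 3.01% in panobinostat and 88.8 ± 0.560% in DMSO. Both genes known from blood cells thus remained minor members of their families in this line. CFL1 made up 76.1 ± 0.719% of the cofilins in panobinostat and 77.6 ± 0.443% in DMSO. The rest of that family shifted further, with DSTN at 19.1 ± 1.12% in panobinostat and 16.02 ± 0.400% in DMSO, and CFL2 at 4.77 ± 0.451% in panobinostat and 6.35 ± 0.053% in DMSO. PFN1 made up 89.6 ± 0.324% of the profilins in panobinostat and 89.6 ± 0.139% in DMSO (exact permutation p = 1). The summed per-length level of the profilins was 1840 ± 153 in panobinostat and 2331 ± 27.2 in DMSO.

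**Figure D3:**
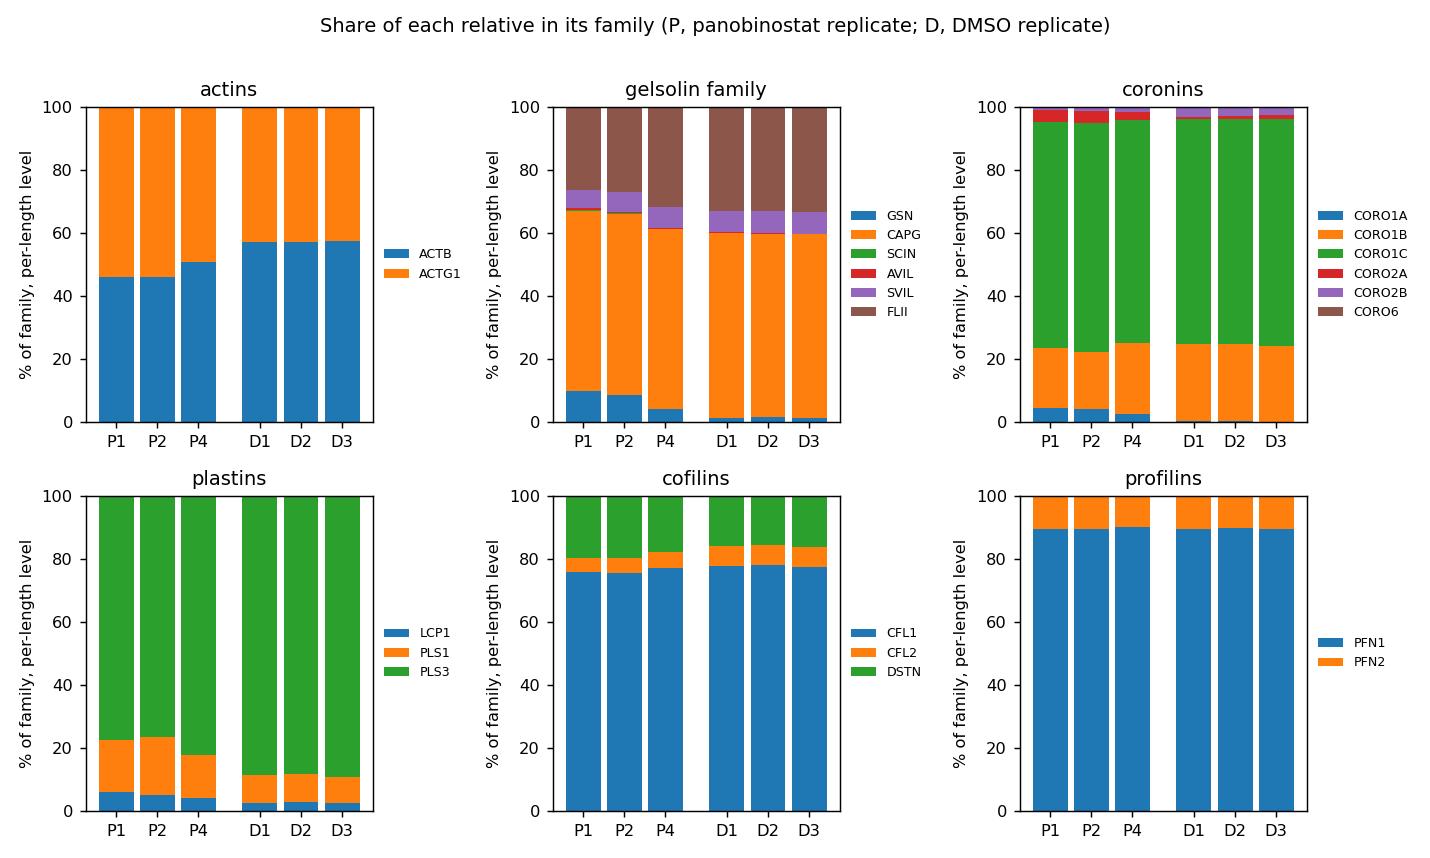
Share of each relative in its family, in % of the summed per-length level, as stacked bars for each library, with panobinostat libraries (P) left of DMSO libraries (D). Relatives under 0.1% are not drawn. ACTG1 takes a mean of 52.3% of actin transcripts in panobinostat and 42.7% in DMSO, while PFN1 takes 89.6% of profilin transcripts in both groups.

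Around these genes, 116 others of the actin machinery were listed in 15 groups, of which 98 were tested. Of these 42 rose (42.9%), 25 fell (25.5%) and 31 were not called, with a median log2 fold change of 0.06, beside 0.00 over all genes. Without panobinostat replicate 4, 45 of the 98 rose and 36 fell, while over all genes 37.7% rose and 37.2% fell, beside 30.2% and 28.6% with it. Of the 9 subunits of the Arp2/3 complex, which nucleates branched filaments, 0 rose and 2 fell, ACTR3 (−0.43 ± 0.09) and ARPC1B (−1.12 ± 0.24), and the list median was −0.10. Without panobinostat replicate 4, when calls were more common over all genes, 6 of the 9 fell. The ARPC1B fall rests on low levels, 1.51 CPM in panobinostat and 3.38 CPM in DMSO, and ARPC1B shares 32.4% of its exons with a read-through gene. The same gene shares 58.35% of the exons of ARPC1A, which was not called (−0.10 ± 0.11). The activators of that complex were mixed, with 5 of 12 higher and 3 lower, or 5 lower without panobinostat replicate 4. CYFIP2 rose most (4.12 ± 0.36, 36.9 CPM in panobinostat and 2.08 CPM in DMSO), with WASF3 (0.89 ± 0.14) and WASL (0.48 ± 0.10), while WIPF1 (−0.97 ± 0.18), NCKAP1 (−0.57 ± 0.09) and WASF2 (−0.51 ± 0.11) fell. Of 12 tested formins, which build unbranched filaments, 5 rose and 5 fell. DAAM2 (1.91 ± 0.27) and DAAM1 (1.71 ± 0.16) rose, and FMNL1 (−1.32 ± 0.37) and DIAPH3 (−0.67 ± 0.11) fell. Without panobinostat replicate 4 the FMNL1 value was −2.00. The FMNL1 call was lost without panobinostat replicate 2 (edgeR adjusted p = 0.0501) or DMSO replicate 2 (edgeR adjusted p = 0.0519). With no filter it was lost too (edgeR adjusted p = 0.165).

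Among capping proteins and tropomodulins, which seal filament ends, CAPZA1 fell (−0.34 ± 0.08) and TMOD2 rose (2.91 ± 0.29). TMOD1 had 101 counts in panobinostat and 3 in DMSO, a ratio of 31.1 with an exact 95% counting interval of 10.4 to 153.5. LMOD1, a leiomodin rather than a tropomodulin but kept in the same list, had 175 counts in panobinostat and 4 in DMSO. Its ratio was 40.5, with an interval of 15.5 to 150.2. Of 17 cofilin family members, regulators and cofactors, 8 rose and 6 fell, or 7 fell without panobinostat replicate 4. The cofilin kinases were mixed, with TESK2 (1.54 ± 0.18), TESK1 (0.93 ± 0.18) and LIMK1 (0.40 ± 0.13) higher and LIMK2 (−0.68 ± 0.13) lower. COTL1, a small relative of cofilin, rose (0.49 ± 0.07), and CAP2, which recycles monomers, fell (−0.49 ± 0.14). The CAP2 call was lost without panobinostat replicate 1 or 2 or DMSO replicate 1 or 3 (edgeR adjusted p of up to 0.0586). Tropomyosins, which line filaments, had TPM1 higher (0.47 ± 0.07), TPM2 (−1.05 ± 0.22) and TPM4 (−0.34 ± 0.07) lower and TPM3 not called (−0.06 ± 0.05). Of 6 tested genes of non-muscle myosin II, the motor that pulls on filaments, 4 rose and 0 fell, among them MYL9 (0.44 ± 0.10), MYH10 (0.41 ± 0.08) and MYH9 (0.34 ± 0.06). Without panobinostat replicate 4, 5 of the 6 rose and 1 fell.

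The list of serum response factor (SRF), its cofactors and known targets had 10 of 14 tested genes higher and 1 lower, beside 30.2% higher and 28.6% lower over all tested genes. Without panobinostat replicate 4 the counts were 11 higher and 3 lower. SRF itself was not called (0.16 ± 0.07, edgeR adjusted p = 0.061), and was called higher without panobinostat replicate 4, with library totals only, with upper-quartile factors and with limma-voom (0.18 to 0.19). Its cofactor MRTFA rose (0.69 ± 0.12). MRTFB was not called (−0.23 ± 0.12), and was called lower without panobinostat replicate 4 and with limma-voom (−0.33 in both). Of the targets, FHL1 (0.65 ± 0.14), VCL (0.58 ± 0.09) and CALD1 (0.55 ± 0.09) rose, TGFB1I1 fell (−1.59 ± 0.41), a call lost with no filter, and ZYX was not called (−0.11 ± 0.06; edgeR adjusted p = 0.0461 without panobinostat replicate 4). TGFB1I1 had 9.27, 9.93 and 31.15 CPM in panobinostat replicates 1, 2 and 4. Its DMSO mean was 49.2 CPM, so the fall was much smaller in panobinostat replicate 4. CNN1, CNN2, MYL9, MYH9 and TPM1 stand in this list and in another above.

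**Figure D4:**
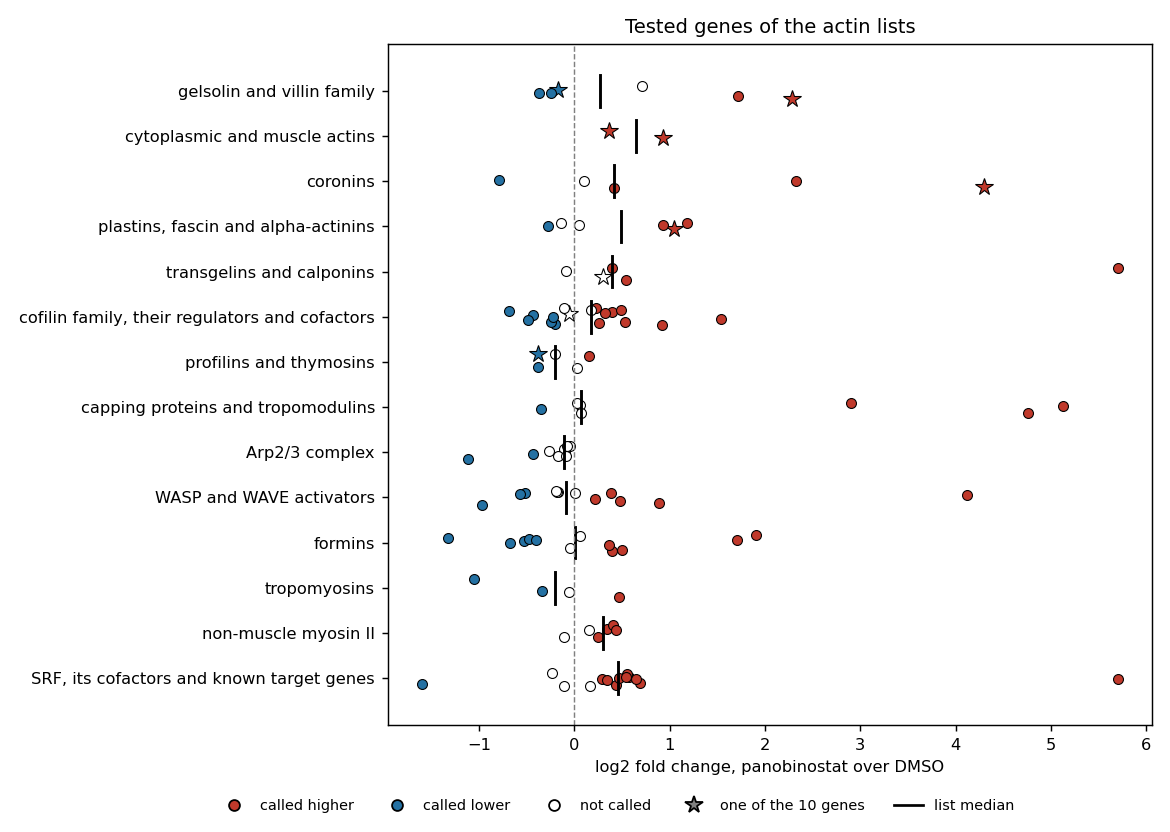
Log2 fold change of each tested gene in the actin lists, panobinostat over DMSO, 1 row per list; the list of FLNA is not drawn. Points are coloured by call, stars mark those of the 10 genes that fall in the lists drawn, and the black bar is the list median. The Arp2/3 row has no gene called higher, while CORO1A stands far to the right of the other coronins.

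The genes whose pattern over the 6 libraries was most like that of GSN were found by the root mean square difference of log2 levels, each centred on its DMSO mean, among 9790 genes of at least 10 CPM. MT1X, a metallothionein, was nearest, with a difference of 0.086. It had 113.9, 102.4 and 58.7 CPM in panobinostat replicates 1, 2 and 4, against 18.6, 20.6 and 19.2 CPM in DMSO replicates 1, 2 and 3. CADM4 (0.106), FGFR4 (0.108), HES6 (0.137) and SSTR2 (0.138) followed. Each had its 2 highest levels in panobinostat replicates 1 and 2 and an intermediate level in replicate 4, as GSN did. These genes were picked for likeness to GSN over the same 6 libraries, so that shared pattern follows from the choice.

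The line was checked against its defining markers. VIM, the mesenchymal filament protein, averaged 2870 CPM in panobinostat and 2567 CPM in DMSO, and the epithelial cadherin CDH1 averaged 0 CPM in panobinostat and 0.028 CPM in DMSO. Of 6 tested mesenchymal markers VIM and FN1 rose and AXL, MSN and ZEB1 fell, ZEB1 at 95.8 CPM in panobinostat and 179.9 CPM in DMSO. Of 6 tested epithelial markers KRT19 and CLDN4 rose and EPCAM and KRT18 fell. KRT19 averaged 314.7 ± 97.0 CPM in panobinostat and 58.6 ± 2.61 CPM in DMSO. Summed mesenchymal markers ranged from 6695 to 6766 CPM in panobinostat and from 6774 to 6882 CPM in DMSO. Summed epithelial markers ranged from 696 to 849 CPM in panobinostat and from 594 to 600 CPM in DMSO. Their part in the differences of the 10 genes was not tested.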

How the data were processed

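The authors deposited raw counts per gene for the 6 libraries in 1 table, attributed to featureCounts by its file name. Per the labels, the mRNA library kit was stranded; the submitters' processing notes name GRCh38.p14 and FastQC, with the aligner, annotation and strand setting not given in the sources used here. Counts were tested with edgeR 4.0.16 (R 4.3.3; robust quasi-likelihood fit, TMM factors of 0.9864 to 1.0134, filterByExpr, treatment as the only term). The script was tested on simulated data. Per-length levels used GENCODE 29 principal transcripts, and all annotated exons where a gene had none, for genes holding 99.98% of counts; this length was chosen after an exon-union length had been seen. P-values measure the spread between libraries. Alternatives used DESeq2 1.42.0, limma 3.58.1, other scaling, no filter, the replicate block and leaving out each library. The 10 genes and the lists were chosen with earlier results of these data known. Besides the 10 genes, the text names the largest called changes of each list, up to 4 in each direction at 1 CPM or more, and a set of close relatives; not all of these are printed. The authors' own comparison columns were not used.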

Additional observations from a re-analysis of the deposited data

How the results depend on the processing

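GSN, CORO1A, LCP1, ACTB, ACTG1 and PFN1 kept their calls under all 13 alternatives, and 119 of 130 values of the 10 genes stayed on their side of the threshold. With library totals only, and with no filter, 1 of the 10 genes was called lower. Leaving out 1 library gave 5 to 7 of them higher and 1 to 2 lower, with 39 to 52 genes of all actin lists higher and 20 to 38 lower. Over all genes this gave 3105 to 5024 higher and 2660 to 4969 lower. Only numbers 1 and 2 are shared, and same-numbered libraries did not deviate together (r of 0.057 and 0.008), so the numbers are not taken as pairs. With a replicate block 6 of the 10 genes were higher and 3 lower, CFL1 being added (edgeR adjusted p = 0.0169). In that fit 53 listed genes were higher and 41 lower. Panobinostat replicate 4 and DMSO replicate 3 each stood alone in a block there, so the treatment effect rested on replicates 1 and 2 of each group. Of 1092 values of the 84 other named genes, 56 lost a call, 39 gained one and 20 changed sign, the last all in genes that were not called. With no filter these were ACTN4 (−0.008), TMSB10 (−0.022), CAPZA2 (−0.001), TMOD3 (−0.029) and BRK1 (−0.052). With the block they were TMSB15B (0.235), CAPZA2 (−0.023), TMOD3 (−0.05) and BRK1 (−0.055). With limma-voom they were TMOD3 (−0.0) and BRK1 (−0.016). BRK1 changed with DESeq2 size factors (−0.003) and the DESeq2 test (−0.004). Leaving out 1 library gave ranges that crossed 0 for TMOD3 (−0.03 to 0.086), BRK1 (−0.031 to 0.049), TMSB15B (−0.479 to 0.073) and PDXP (−0.053 to 0.338). The DMSO counts, 27 for CORO1A and 3 for CNN1, limit those ratios.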
